A study of Mus musculus with 19 samples.

Results

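The Skint genes (selection and upkeep of intraepithelial T cells) of the A223 mouse tumour line were described from its table of sequence variants. The members were all genes of that table whose symbol begins with Skint. RefSeq annotates 11 such genes on chromosome 4 of GRCm38.p6, and 8 of them held at least 1 call, of 23793 gene labels in the table. Skint5 and Skint6 were singled out because earlier counts of this table showed many homozygous missense calls in them. They were thus chosen by measured values, namely their calls by effect and genotype, their missense to synonymous ratio and their RNA read numbers, and all of these are given as descriptions without a test.

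A223 is a squamous cell carcinoma line that the labels call C57BL/6-derived, and the cells read here were grown in vitro. Its DNA was captured on exons and sequenced in 1 exome library, and its polyadenylated RNA was sequenced in 1 library. No normal DNA of the same animal, other clone or control line was analysed here, so inherited and acquired changes cannot be told apart. The series has 19 libraries in all, and the other 17 hold T cells from mice bearing this tumour, which were not used here.

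Skint proteins belong to the immunoglobulin superfamily and are related to the butyrophilins. They carry immunoglobulin-like domains outside the cell, followed by several membrane-spanning segments, and are made mainly by keratinocytes and thymic epithelial cells. Skint1, the founding member, is needed in the fetal thymus for the maturation of dendritic epidermal T cells, the γδ T cells that settle in mouse skin and share a nearly invariant receptor. Mice that lack an intact Skint1 form few T cells with that receptor. What Skint5 and Skint6 do is much less well known.

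The table listed 564674 calls, each with a genotype in the exome, a genotype in the RNA and the number of RNA reads at the position. Of these, 209790 had an exome call and 354884 were called in the RNA only. A genotype was homozygous when only the changed base was called and heterozygous when the reference base was called too. Exome depth and reads per allele were not used here, so a genotype is given as called, with no error of its own. The sequences of the Skint genes were not compared with each other here, and reads may have been placed on the wrong member, which was not tested.

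The Skint genes held 1989 calls, of which 1664 were exome calls and 325 were RNA-only calls. Of the exome calls, 1557 were homozygous, 102 were heterozygous and 5 had 2 changed alleles. The homozygous share was 93.6% (exact Clopper-Pearson 95% interval 92.3 to 94.7), beside 59.8% of all exome calls in the table. Neighbouring calls may share a haplotype and are not independent, so this and all later intervals cover counting error only. By effect, 226 exome calls were missense, 70 were synonymous, 20 shifted the reading frame and 3 gained a stop.

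In chromosome order, the genes with calls were Skint8, Skint7, Skint1, Skint2, Skint10, Skint6, Skint5 and Skint11. Skint1, the selecting member, lies at chr4:112006269-112029538 and held 68 exome calls, all 68 homozygous. Skint2 at chr4:112613598-112652248 held 92 exome calls and Skint10 at chr4:112710830-112774861 held 130, all homozygous. Skint8 held 94 exome calls, of which 89 were homozygous and 5 heterozygous. Skint7 held 57 exome calls, of which 50 were homozygous and 7 heterozygous. Skint11 held 10 exome calls, all homozygous and all in its exon 7. In 4 genes, Skint1, Skint2, Skint10 and Skint11, no heterozygous exome call was made.

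Skint6 spans 482.358 kb at chr4:112804616-113286973 and held 504 exome calls, of which 459 were homozygous, 44 heterozygous and 1 had 2 changed alleles. Skint5 spans 521.613 kb at chr4:113477891-113999503 and held 709 exome calls, of which 659 were homozygous, 46 heterozygous and 4 had 2 changed alleles. The homozygous share was 91.1% (88.2 to 93.4) in Skint6 and 92.9% (90.8 to 94.7) in Skint5. Both are the longest genes of the family, and together they held 1535 of its 1989 calls.

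Skint4, Skint3 and Skint9 lie next to each other between Skint1 and Skint2, and no call fell in them. The table held 0 calls from the start of Skint4 to the end of Skint9, exome or RNA. The stretch without an exome call ran for 567.154 kb. Another gap of 195.719 kb covered the start side of Skint5, and one of 144.205 kb the start side of Skint6. Positions without a call have no value in the table, so a reference genotype and a lack of reads cannot be told apart there.

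**Figure D1:**
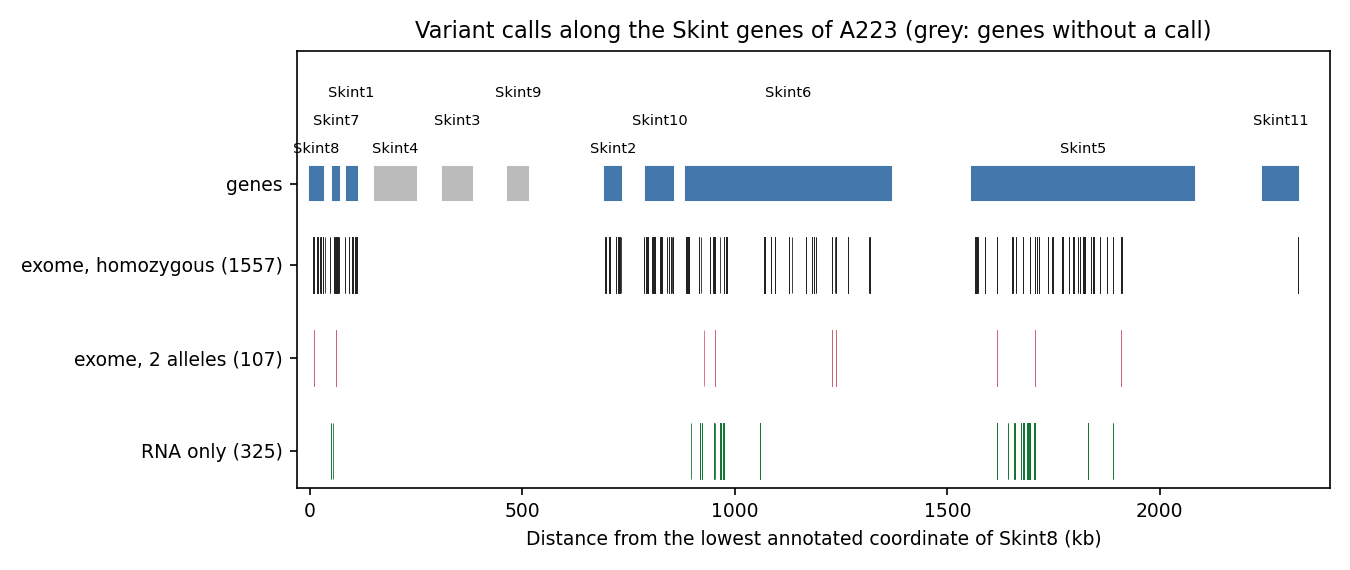
Position of each Skint call along chromosome 4, as distance in kb from the lowest annotated coordinate of Skint8, with 1 tick per call and 1 row per call type, under boxes for the 11 genes. Homozygous exome calls occurred in 8 genes, those of Skint11 in exon 7 alone, calls with 2 alleles stood in few narrow clusters, and Skint4, Skint3 and Skint9 held 0 calls.

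One gene start carried calls. RefSeq promoter windows of 250 bases before to 50 after the start were read for 12 starts of the family, and 11 held no call. The window of Skint10 held 2 homozygous exome calls, each with 0 RNA reads. Its 250 bases before the start are shown because both calls lie in them. The run is the GRCm38.p6 reference on the minus strand, chr4:112774862-112775111, 5′ to 3′, and capitals mark the 2 changed bases.
Skint10: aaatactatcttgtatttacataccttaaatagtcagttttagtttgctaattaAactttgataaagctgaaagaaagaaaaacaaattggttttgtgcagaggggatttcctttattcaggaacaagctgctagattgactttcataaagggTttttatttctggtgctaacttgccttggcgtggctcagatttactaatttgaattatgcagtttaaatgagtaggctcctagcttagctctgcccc
Positions count from 1 at the 5′ end of this run. A55T lies 196 bases before the start and T154A lies 97 bases before it.

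The 226 missense calls exceeded the 70 synonymous calls in number. Missense made up 76.4% (71.1 to 81.1) of these calls, beside 38.8% over all genes. The ratio was 3.23 missense calls per synonymous call (exact 95% interval 2.46 to 4.28). Over all 4304 genes with such a call it was 0.633, over chromosome 4, Skint genes included, it was 1.02, and over homozygous calls of all genes it was 0.590. In the 5 Mb on both sides without the Skint genes, 23 genes held 22 missense and 30 synonymous calls, a ratio of 0.733 (0.403 to 1.31). These intervals cover counting error and are no test, since the ratio was among the values that chose the members.

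Skint5 held 80 missense and 28 synonymous calls, a ratio of 2.86 (1.84 to 4.56). Skint6 held 71 missense and 23 synonymous calls, a ratio of 3.09 (1.91 to 5.18). By number of missense calls they ranked 3 and 4 of 4304 genes. Of the 141 genes with 20 or more such calls, 13 had a higher ratio than Skint5 and 10 had a higher ratio than Skint6. A longer coding sequence can hold more calls, so calls were also counted per kb of coding sequence. Skint5 had 26.6 and Skint6 28.2 coding calls per kb, beside a median of 1.95 over 4382 genes with a coding call, and ranked 40 and 32.

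Skint1 had 15 missense and 2 synonymous calls, a ratio of 7.5 (1.74 to 67.6). Skint2 had 13 and 3, Skint8 had 17 and 4, and Skint10 had 14 and 4. Skint7 had 10 missense and 4 synonymous calls, and Skint11 had 6 and 2. The 6 genes without Skint5 and Skint6 held 75 missense and 19 synonymous calls, a ratio of 3.95 (2.36 to 6.92), beside 2.96 (2.14 to 4.15) for Skint5 and Skint6 together. In each of the 8 genes missense calls outnumbered synonymous ones, in some of them on few calls. The share of all genes for which this holds was not counted here.

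**Figure D2:**
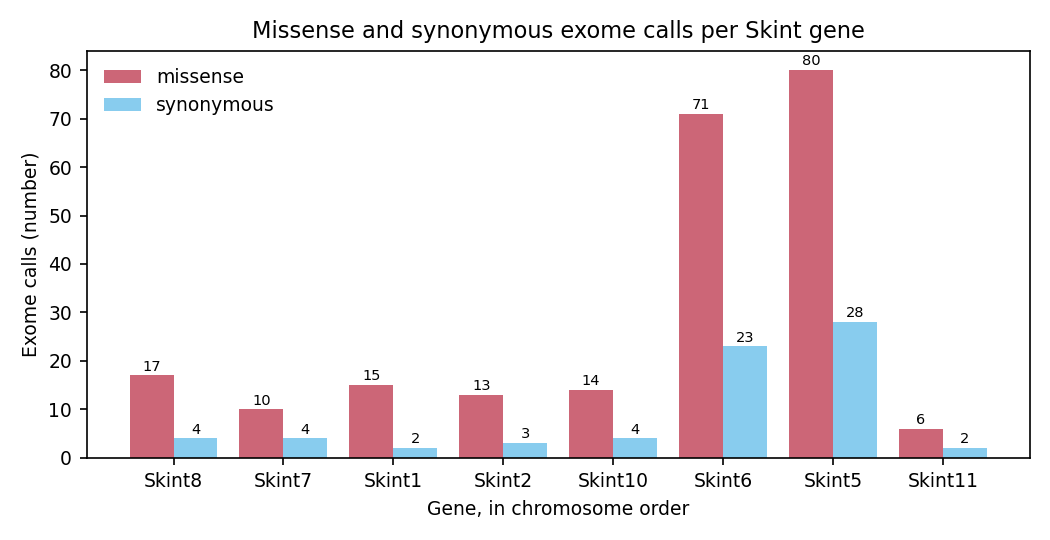
Number of missense and synonymous exome calls in each Skint gene with a call, in chromosome order, with the count above each bar. Missense outnumbered synonymous calls in all 8 genes, from 6 against 2 in Skint11 to 80 against 28 in Skint5.

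The kind of base change was counted over coding single-base exome calls with 1 changed allele. In the family these were 296 calls, 224 missense, 70 synonymous and 2 stop calls. Of these 296 calls, 149 were transitions, exchanges within purines or within pyrimidines, which is 50.3% (44.5 to 56.2). Over all genes 74.1% (73.5 to 74.7) of 20942 calls of this kind were transitions. Of those, 8074 were missense and 12759 synonymous, a mix unlike that of the family. The part of this mix in the difference was not tested.

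In Skint1, the 15 missense calls ran from residue 27 to residue 311 of 364. They were Pro27Gln, Ala39Val, Arg171Gln, Ala187Thr, Ile203Met, Lys246Thr, Gly250Ser, Ile252Met, His269Tyr, Lys275Arg, Trp276Cys, Thr290Ile, Met293Val, Met305Lys and Val311Ile. All were homozygous, and each position had 0 RNA reads. No stop and no frame shift was called in Skint1.

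Skint5 carried its 118 coding calls in 21 of 59 exons, between residues 534 and 1392 of 1475. Its first 17 exons held no coding exome call. Exons 51 and 43 held the most, with 14 and 13 calls, and the median was 5. Missense outnumbered synonymous calls in 19 of the 21 exons. Skint6 carried its 105 coding calls in 19 of 49 exons, between residues 44 and 1227 of 1240. Exons 7 and 11 held 10 each, and the median was 6. Missense outnumbered synonymous calls in 15 of these 19 exons.

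Of the 151 missense calls in Skint5 and Skint6, 137 were homozygous, 12 heterozygous and 2 had 2 changed alleles. Both genes thus shared the mostly homozygous genotype and spread over many exons, and differed in where along the protein the calls began. The start side without a call measured 169.496 kb in Skint5 and 48.568 kb in Skint6. A reference genotype and a lack of reads cannot be told apart there.

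**Figure D3:**
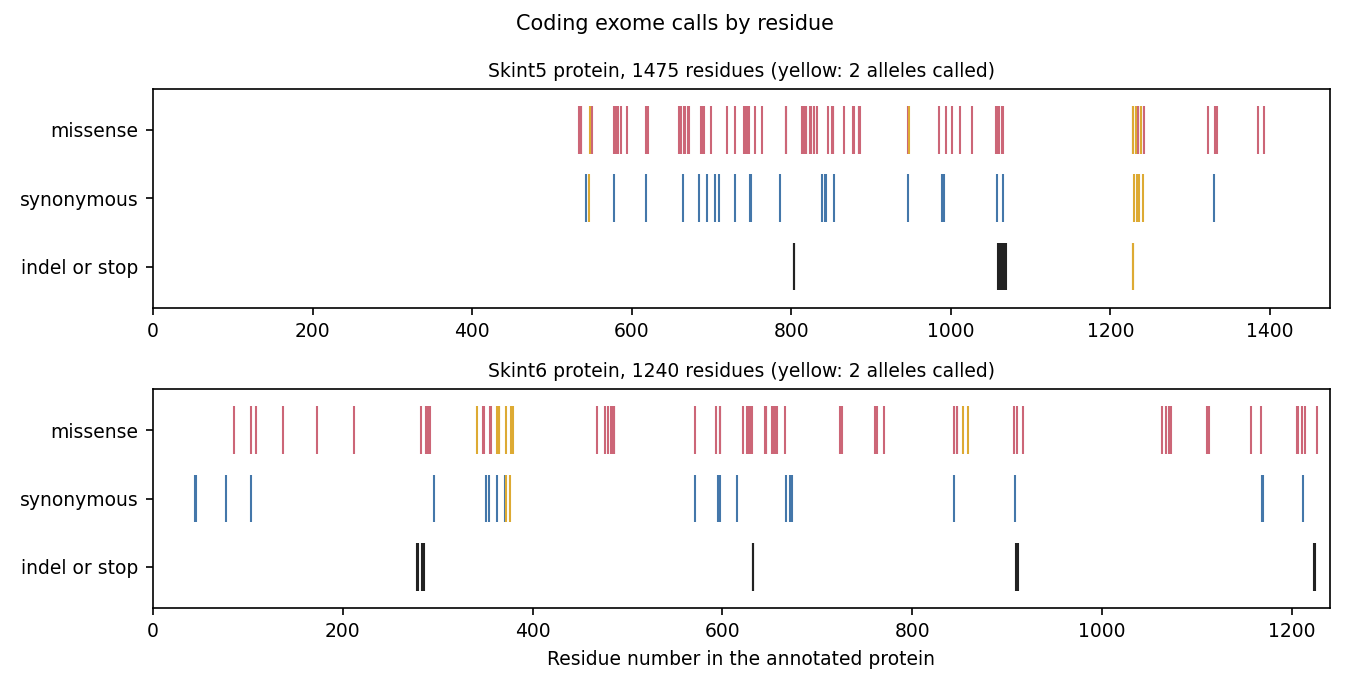
Coding exome calls of Skint5 and Skint6 by residue number, with 1 tick per call in separate rows for missense, synonymous and indel or stop calls, and yellow ticks for calls with 2 alleles. Skint5 has no tick before residue 534, and its indels stand mostly in exon 43, while Skint6 has ticks from residue 44 to residue 1227.

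Changes to or from cysteine, proline and stop were named because cysteines form the disulfide bonds of immunoglobulin domains, prolines bend the chain and stops end it. Of 229 missense and stop calls, 7 changed a residue to cysteine and 1 changed a cysteine. In Skint6 these were Ser377Cys, Ser484Cys, Trp597Cys, Ser859Cys and Ser1071Cys, and the lost cysteine was Cys476Phe. Skint5 had Ser948Cys and Skint1 had Trp276Cys. Ser377Cys, Ser859Cys and Ser948Cys were heterozygous and the other four were homozygous.

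Changes to proline numbered 7 and changes from proline 7. The gained prolines were Thr700Pro and Ser825Pro in Skint5, Thr654Pro in Skint6, Ser27Pro and Gln280Pro in Skint10, Leu374Pro in Skint8 and Ala279Pro in Skint11. The lost prolines were Pro846Ser in Skint5, Pro666Ser in Skint6, Pro27Gln in Skint1, Pro20Leu in Skint10, Pro120Leu in Skint7, and Pro263Leu and Pro284Ser in Skint8. All 14 were homozygous.

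Stops were rare. Skint7 had the homozygous Gln251*, on a transcript of 252 residues. Skint5 had Leu1229*, called heterozygous, and Lys1228*, called with 2 changed alleles, both in exon 51. Read in the reference frame with the homozygous Lys1228Asn of the same codon, Lys1228* gave no stop. The RNA called the other changed allele there, Lys1228Glu, at 2 reads. Skint6 had no stop call. Changes at the first or last intron base were c.203+1G>A in Skint10, at a splice donor, and c.3332-1G>A in Skint6, at a splice acceptor, and both were homozygous with 0 RNA reads. The Skint10 change was annotated on a transcript of 112 residues, whereas most coding calls of Skint10 were on one of 354 residues.

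Many calls shared a codon. Of 299 coding single-base exome calls in the family, 50 lay in a codon with another call, 16.7% (12.7 to 21.4) beside 3.71% over all genes. In 19 codons at least 2 of these calls were homozygous, 7 in Skint5, 7 in Skint6 and 5 in the other genes. Each call of the table is annotated alone. The codon was also read with all of its homozygous calls. This assumes that the genotypes are right, that the reads came from that gene and that the reference frame holds. A single residue followed in 18 codons, it differed from each single annotation in 12, and none became a stop.

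In Skint5, Lys829Glu and Lys829Met read together as Lys829Val, Ser885Arg and Ser885Ile as Ser885Leu, and Met1235Lys and Met1235Val as Met1235Glu. In Skint6, Ile486Ser and Ile486Val read as Ile486Gly, and Trp597Cys and Trp597Leu as Trp597Phe, so the cysteine annotated at Trp597 was absent from the joint codon. The remaining Skint6 codons that differed were Arg571Pro, Asp646Ile, Ala844Glu and Lys847Asp. Outside these genes they were Ile334Glu in Skint10, Thr201Met in Skint2 and Ala274Asp in Skint7. At codon 844 of Skint6 the RNA alone called a homozygous deletion, Ala844fs, at 2 reads, and both exome calls there had 0 reads. In 6 codons the joint residue equalled 1 of the annotations, namely Gln578Glu, Asn618Ile, Ile852Leu and Thr1058Lys in Skint5, Lys103Glu in Skint6 and Arg171Gln in Skint1. Codon 254 of Skint8, with Leu254Arg and Leu254Ile, gave 2 possible residues because the reference codon could not be fixed from the calls alone.

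Further codons of Skint5 and Skint6 held calls with both alleles. In Skint5 these were Leu1229Phe with Leu1229*, Lys1228Asn with Lys1228* and Glu1239Gly with Glu1239Lys. In Skint6 they were Glu365Val with Glu365Lys, Gly362Glu with Gly362Gly, and Gln372Leu with Gln372Gln. Lys1228Asn, Glu1239Lys and Gly362Gly were homozygous, so as called each lies on every copy of its codon. In the reference frame, the codon of Lys1228* then ends in T, as no stop codon does. For the remaining codons, which calls lie on the same copy is not given by the genotypes.

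Frame shifts came in groups. The family had 21 coding insertions or deletions in the exome, all 21 homozygous, and 20 of them were annotated as frame shifts. In 7 exons at least 2 homozygous ones lay together, and in 6 of these their lengths summed to a multiple of 3, so that the frame was restored within the exon. That is 85.7% (42.1 to 99.6), and over all genes it was 85.2% of 27 such exons, so the family was at the background.

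The 6 exons were 7, 23, 37 and 48 of Skint6, 30 of Skint5 and 7 of Skint11. In exon 7 of Skint6, 5 insertions or deletions lay within 25 bases and summed to 0. In exon 30 of Skint5 and exon 23 of Skint6, the deletion and the insertion abutted, and in both the reference TTCA became TATG. In exon 48 of Skint6 TGCA became TATG in the same way. The exception was exon 43 of Skint5, where 6 insertions or deletions within 30 bases summed to -2, and the frame was not restored by the listed calls.

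The pair of exons with the same replacement belonged to a longer series. Calls of Skint5 were set against calls of Skint6 with the same reference and changed bases, and the distance between them was taken. Of the distances seen, 22805 occurred with 1 shared change, 1416 with 2, 89 with 3 and 7 with 4 or more. A distance of 699739 bases recurred for 9 changes within 188 bases, in and around exon 32 of Skint5 and exon 25 of Skint6. A distance of 701132 bases recurred for 5 changes in and beside exons 30 and 23, of which 4 were coding. One of 699806 recurred for 4 changes in and beside exons 31 and 24, of which 2 were coding, and one of 679396 for 5 changes around exons 18 and 11. A distance of 710167 bases recurred for 4 changes within 37 bases in and beside exons 25 and 20, of which 1 was coding. The remaining pair of distances was spread over 96282 and 74940 bases and did not join single exons.

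The same series appeared in residue numbers, where 8 identical protein changes lay exactly 171 residues apart. Of the 110 distances seen among 108 Skint5 and 94 Skint6 missense or synonymous calls, no other had more than 2. The pairs were Gln547Gln and Gln376Gln in exons 18 and 11, Thr786Thr and Thr615Thr in exons 30 and 23, and Lys793Ile and Lys622Ile in the same exons. Exons 31 and 24 shared Ser816Thr and Ser645Thr, and Val823Leu and Val652Leu. Exons 32 and 25 shared Thr838Thr and Thr667Thr, Ser842Ser and Ser671Ser, and Val844Val and Val673Val. In these 4 exon pairs the exon number of Skint5 was 7 above that of Skint6, whereas in the pair of exons 25 and 20 it was 5 above. Whether reads of one gene were placed on the other was not tested.

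Heterozygous calls were packed closely. Of the 102, 101 lay in 8 clusters, with calls joined when no more than 1000 bases apart, and these clusters covered 1119 bases in all. The longest was in and around exon 51 of Skint5, with 31 heterozygous, 12 homozygous and 3 two-allele calls within 303 bases. The next was in and around exon 11 of Skint6, with 29 heterozygous calls within 250 bases. Exon 18 of Skint5 followed with 9, exon 34 of Skint6 with 8, and exon 37 of Skint5 and exon 10 of Skint6 with 6 each. Skint7 held 7 and Skint8 5, in 1 cluster each. Exons 18 of Skint5 and 11 of Skint6, which share the changes described above, were both among them.

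The homozygous share extended beyond the family. In the 4 windows of 1 Mb that hold Skint genes, 94.5% (93.4 to 95.5) of 1996 exome calls were homozygous, beside 65.7% (64.7 to 66.6) in 117 other windows of chromosome 4. From 500 kb windows of the same exome calls, with at least 20 calls and up to 3 windows missing, a stretch from 106.5 to 116.0 Mb was drawn. It held 2831 exome calls at 95.5% homozygous, and the Skint genes supplied 58.8% of them. Without them, 1167 calls remained, 98.3% of them homozygous, and the rest of the chromosome had 62.6% of 8730. That rest was uneven, and the 4 windows of 1 Mb from 148.0 to 152.0 Mb held 1253, 486, 403 and 224 exome calls, of which 98.8% to 99.8% were homozygous. A share as high as that of the Skint windows thus also stood elsewhere on chromosome 4. Between the first and the last Skint call, 5 other gene labels, Gm12813, Gm12816, Gm12817, Gm12821 and Gm25844, held 62 calls. Of these, 39 were exome calls, all homozygous with 0 RNA reads, and 23 were RNA-only calls in Gm12821, between Skint9 and Skint2, with up to 159 reads. Outside the family, the nearest genes with a call were Slc5a9, a sugar transporter gene, with 5 exome calls, and Trabd2b with 47. All calls in this pair of genes were homozygous with 0 RNA reads, and the only protein change among them was Ala685Ser in Slc5a9.

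RNA reads over the family were few. Of the 1664 exome calls, 120 had at least 1 RNA read, 7.21% (6.01 to 8.56) beside 33.4% of all exome calls. Of the 320 coding calls, 38 had a read, 11.9% (8.54 to 15.9) beside 48.1%. In Skint5, 97 of 118 coding positions had 0 reads, 7 had 1 and 14 had 2. In Skint6, 88 of 105 had 0 reads, 4 had 1, 7 had 2, 3 had 3 and 3 had 4. The remaining 6 genes had 0 of 97 coding positions with a read, which allows a share of up to 3.09% when 3 counts are taken as the limit of a count of 0. No Skint exome call reached 10 reads, whereas 35.6% of 21505 coding exome calls in the table did. Reads at called positions are not a measure of expression, and a change of the coding sequence was seen in RNA at few of these positions.

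Only 21 calls were made in both DNA and RNA, 14 in Skint6 and 7 in Skint5, with 2 to 4 reads each. Of these, 9 lay in or beside exon 48 of Skint6, the exon with the TATG replacement, and both of its frame shifts were among them, each with 4 reads. Exon 34 of Skint6 held 5 and exon 51 of Skint5 held 7. The genotype was the same in 16 of the 21, 76.2% (52.8 to 91.8). Over all genes, at any RNA read number, it was the same in 85.2% of 38182 calls. These shares were thus taken at unlike read numbers. In the other 5 Skint calls the exome was heterozygous and the RNA homozygous, at 2 or 3 reads. These were Ser859Cys, Gln854His and an intron call in Skint6, and Asn1232Asp and Leu1229Phe in Skint5.

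RNA-only calls were mostly intronic. Of the 325, 313 lay in introns, 96.3% (93.6 to 98.1) beside 53.9% of all RNA-only calls. Coding ones numbered 10, with 9 in Skint5 and 1 in Skint6. Of all 325, Skint5 held 215, Skint6 107 and Skint7 3, and the other genes had none. The median of the 325 was 4 reads, beside 7 over all RNA-only calls, and the highest had 99. Of the 346 RNA genotypes in the family, 344 were homozygous, 99.4% (97.9 to 99.9) beside 62.1% over all genes. These shares too were taken at unlike read numbers, and at few reads a second allele can be missed. The part of read number in this difference was not tested.

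In Skint5, 155 of the RNA-only calls lay in intron 39, chr4:113597948-113613424, with a median of 5 reads and at most 26. In Skint6, 39 lay within 2.559 kb of intron 31, with a median of 3 reads and at most 43. The 5 calls with the most reads were c.2026+9880T>G with 99, c.2026+9847G>A with 98, c.2026+9807A>G with 73, c.2026+9625A>G with 63 and c.2026+9949C>G with 59. All 5 were in intron 25 of Skint6, in a group of 19 calls with 10 to 99 reads and a median of 49. That group lay wholly inside Gm12818, an annotated gene of its own at chr4:112978268-112979843, so these reads cannot be assigned to Skint6. Coding positions of Skint6 had at most 4 reads.

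**Figure D4:**
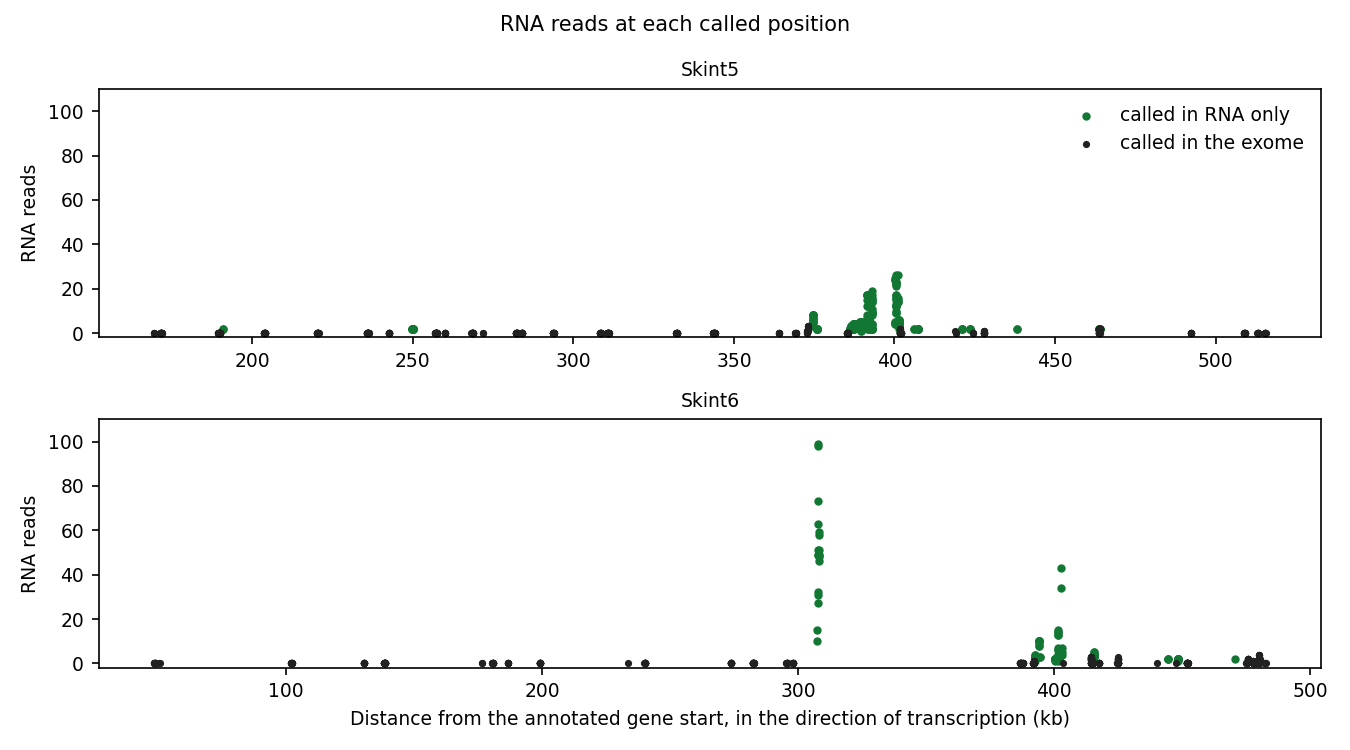
RNA reads at each called position of Skint5 and Skint6 against distance in kb from the annotated gene start, with black points for exome calls and green points for RNA-only calls. Exome calls stay at or below 4 reads, and the highest group, with up to 99 reads, is the intron 25 group of Skint6 that lies inside Gm12818.

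Butyrophilin relatives, keratinocyte ligands and cytokines, and genes of the T cell side were counted from lists that were chosen with earlier results known. Of 21900 protein-coding RefSeq genes matched by symbol, 52.4% held a call and 11.6% a protein-changing exome call, and 35.4% of 8868 protein-changing exome calls were homozygous. In the Skint genes 236 of 252 were, 93.7% (89.9 to 96.3). In the stretch around them, 98.3% of the exome calls outside the Skint genes, of any effect, were homozygous too. Of 9 butyrophilin relatives, 2 held a call and 1 had protein changes, Btnl10, with 3 heterozygous ones. Among 20 keratinocyte ligands and cytokines, 12 held a call and 5 had protein changes, 37 calls of which 4 were homozygous. These included H60b and Raet1d, ligands of the activating receptor NKG2D, with 23 and 7 heterozygous calls. Cdh1, the epithelial cadherin, had 5, of which 3 were homozygous, all with 0 reads, Cd276 had Glu286Lys with 19 reads, and Pvr had the homozygous Ser111Trp with 127 reads. Of 15 symbols of the T cell side, where Jaml and Amica1 name the same gene, 10 held a call and 4 had protein changes, 10 calls of which 1 was homozygous, His10Tyr in Klrk1, which encodes NKG2D. The others were Amica1 with 1, Il2rb with 1 and Itgae, the integrin that binds E-cadherin, with 7. Calls that were not homozygous thus made up most of the protein changes in these lists, as they did over all genes, and the difference from the Skint genes was not tested.

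The labelled cell type was read from marker genes as far as the table allows, since only called positions have a read number. Exonic positions of Itgb4, an integrin of keratinocytes, reached 139 reads, Col17a1 7 and Perp 4, while the desmosome genes Dsp and Dsg3 had 0 at 9 and 8 positions. Krt5, Krt14, Krt6a, Krt17, Trp63 and Sfn held no call and so gave no value. Of the fibroblast markers, exonic positions of Col1a1 reached 707 reads, Col1a2 641 and Col3a1 10. Pdgfra, Dcn, Itga6 and Krt15 held calls outside exons only, with up to 299, 17, 15 and 7 reads. Lum held no call. The exonic calls of T cell and myeloid markers had 0 reads. Their part in the low Skint read numbers was not tested. Protein changes among the markers, none of them homozygous, were called in Dsp, Dsg3, Col17a1, Cd8a and Itgam.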

How the data were processed

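Exome and RNA variants of A223 were analysed from the deposited variant table, given as 2 identical copies of which 1 was used. The authors used BWA and GATK, per the submitters' processing notes, with versions not given in the sources used here. Per the file headers, the RNA coverage is a count of reads at each position, without normalisation, and exome and RNA genotypes are the authors' calls. In 34 calls this count was not a single number. The reference base of 3044 of 3044 single-base calls in RefSeq promoter windows matched GRCm38.p6, whose gene bounds and sequence were used.

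Calls were taken by gene label and effect, with pandas 2.3.3 and scipy 1.17.1. Shares carry exact Clopper-Pearson 95% intervals. With 1 library per assay no test was made. The code was tested on simulated data. Members and lists were chosen with earlier results of these data known. Named were all Skint genes, shared codons, changes to or from cysteine, proline or stop, the 5 calls with most RNA reads, listed genes with protein changes and the nearest neighbours. The fixed distances between Skint5 and Skint6 were examined after the data were seen.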

Additional observations from a re-analysis of the deposited data

How the results depend on the processing

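Leaving out each Skint gene in turn gave homozygous shares from 93% to 94.7% and missense to synonymous ratios from 3.1 to 3.48. Without calls within 10 bases of another call, 97.2% of the 497 remaining exome calls were homozygous. Heterozygous calls alone gave 1.71 missense calls per synonymous call, from 12 missense calls. Over the 120 exome calls with at least 1 RNA read the median was 2 reads, by construction above the 0 over all. Coding calls alone gave a homozygous share of 93.0% in the 1 Mb windows. Except for that of the RNA reads, the causes of these shifts were not tested. Genotype match at 10 or more and at 20 or more RNA reads gave no value, since no Skint exome call reached 10 reads. No paired analysis was possible because A223 has 1 library per assay and no result comes from a test. Exome depth was not used here, RNA depth at coding Skint positions was at most 4 reads, and positions without a call have no value.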
